A study of Rattus norvegicus with 40 samples.

Results

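Adipoq, Ucp1, Scd and Fasn were followed in adrenal glands from adult rats of the outbred Sprague Dawley stock, either controls or animals given a mixture of organophosphate esters, which serve as flame retardants and plasticizers. The 4 genes were chosen by their Ensembl identifiers, ENSRNOG00000001821 (Adipoq), ENSRNOG00000003580 (Ucp1), ENSRNOG00000013552 (Scd) and ENSRNOG00000045636 (Fasn), as markers of fat and of fatty acid synthesis, and are 4 of the 32545 genes listed. The files list identifiers alone, and the symbols came with the rule that chose the genes. The groups were female controls, females at 30x, 1000x and 30000x and males at the same 4 levels, with 5 libraries each, 40 in all, called biological replicates in the labels. The labels name no animals, so p-values measure the spread between these libraries, and give for age only that the rats were adult, with no amount behind a multiple, no route, no length of exposure and no account of what controls received. Levels are FPKM, which here means fragments per kilobase of gene scaled by a size factor per library and not by its total, so that FPKM sums ran from 499471 to 1052740. Levels are therefore compared between genes per length and between libraries on the scale of these size factors, and a common sum was tried as an alternative.

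Adiponectin, the product of Adipoq, is a hormone secreted by fat cells and is made in white and brown fat. Ucp1 encodes uncoupling protein of the mitochondrial inner membrane, which lets brown fat turn fuel into heat. Fasn, the fatty acid synthase, builds palmitate from acetyl and malonyl units, and Scd, a stearoyl-CoA desaturase, puts a double bond into the saturated product. Both lipogenic genes are active in fat and in liver and respond to insulin and to SREBP1, and cells that store lipid, steroid-making cells among them, also hold desaturases. The adrenal of the rat lies within a fat pad that contains brown and white fat. The labels name the tissue only as adrenal gland and do not describe its dissection, and from which cells the 4 transcripts came was not tested. In bulk tissue more cells of a type and more RNA per cell cannot be told apart. Markers of cortex, medulla, endothelium and other cells could not be looked up, because 0 of the identifiers had a partner among the 47357 rows of the RefSeq table used for names.

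The 250 bases before the start were available for Adipoq, Ucp1 and Scd in RefSeq (GRCr8). They are shown because each pair of the 3 genes was correlated over all libraries. Pearson's r of Ucp1 and Scd did not pass in males alone or over the 13 libraries with Ucp1 reads. A limma fit of Scd on Ucp1 over the 40 libraries did not pass either (adjusted p = 0.18). A shared control of the genes was not tested. Capitals mark TATAAA and CCAAT on either strand.
Adipoq, chr11:91240170-91240419, minus strand: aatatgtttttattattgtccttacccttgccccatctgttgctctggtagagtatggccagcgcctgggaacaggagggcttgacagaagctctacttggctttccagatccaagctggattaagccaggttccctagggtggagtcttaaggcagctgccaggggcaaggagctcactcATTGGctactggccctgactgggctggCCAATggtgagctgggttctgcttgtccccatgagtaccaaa
Ucp1, chr19:41721422-41721671, minus strand: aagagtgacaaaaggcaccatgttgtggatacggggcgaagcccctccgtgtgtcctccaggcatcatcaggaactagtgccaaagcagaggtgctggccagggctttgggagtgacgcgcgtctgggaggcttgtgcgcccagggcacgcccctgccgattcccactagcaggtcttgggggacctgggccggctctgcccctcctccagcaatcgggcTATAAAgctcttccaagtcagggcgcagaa
Scd, chr1:253231732-253231981, minus strand: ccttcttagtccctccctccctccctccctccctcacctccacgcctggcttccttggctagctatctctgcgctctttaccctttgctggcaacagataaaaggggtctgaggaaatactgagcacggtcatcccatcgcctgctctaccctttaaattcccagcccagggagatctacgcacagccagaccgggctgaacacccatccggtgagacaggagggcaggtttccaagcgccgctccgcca
TATAAA, the core of the TATA box, was at 1 place, in Ucp1, starting 30 bases before the start. CCAAT, the core of the CCAAT box, was found at 2 places in Adipoq, starting 69 bases before the start on the reverse strand and 42 bases before it on the forward strand. The window of Scd held neither. Of 33469 windows of the same length, 12.9% held TATAAA and 34% held CCAAT. The E-box, CANNTG, was at 2 places in Adipoq and at 0 in Ucp1 and Scd, against 65.5% of all windows with at least 1. The full element bound by PPAR gamma with its partner RXR (AGGTCA at 2 places in the same direction with 1 base between) was at 0 places in the 3 windows and in 0.0508% of all windows. All motifs were searched on both strands. A match is a description of letters and not of binding. These positions are those of GRCr8 alone, since no source used here names the build of the files.

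Whole reads were recovered from the FPKM, between 13527205 and 23838651 per library with a median of 17528214. Female 30000x replicate 5, known from earlier work on these files to differ from the rest, had the lowest size factor (0.58, against up to 1.54 elsewhere) and the fewest genes at 1 FPKM or more (11905, against up to 12711 elsewhere). The dose, sex and slope fits of filtered values that hold it, and the Pearson correlations over 40 libraries, were repeated without it, and none of these tests of the 4 genes lost or gained its call. The fits and correlations of females alone and the unfiltered tests of Ucp1 were not repeated without it.

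Adipoq was found in all 40 libraries. Values of a group are given in the order of replicates 1 to 5. In female controls the 5 libraries held 5.47, 10.1, 15.4, 51.8 and 7.10 FPKM. At 30x the values were 6.93, 14.1, 10.2, 25.1 and 2.83 FPKM, at 1000x 11.9, 4.15, 118, 6.08 and 24.6 FPKM, and at 30000x 16.8, 6.37, 6.97, 22.6 and 9.64 FPKM. The library of female 1000x replicate 3 held the most, and female control replicate 4 the next most. In male controls the 5 libraries held 8.90, 29.7, 11.3, 7.73 and 5.20 FPKM. At 30x the values were 16.7, 16.8, 20.6, 6.24 and 4.21 FPKM, at 1000x 9.53, 15.3, 17.99, 8.39 and 20.1 FPKM, and at 30000x 21.3, 17.7, 4.56, 5.11 and 10.1 FPKM. Males ranged from 4.21 to 29.7 FPKM with a median of 10.7, and 2 of the 20 female libraries lay above the highest male. The spread within a group was wide: female 1000x libraries averaged 32.99 ± 48.3 FPKM and female controls 17.98 ± 19.3 FPKM (SD, n = 5 each). Over all libraries the highest value was 41.8-fold the lowest. By mean log2(FPKM + 1) the order of the groups ran from female 1000x (4.09) through male 1000x (3.86), female control (3.79), female 30000x (3.60), male 30x (3.59), male control (3.53) and male 30000x (3.45) to female 30x (3.41). None of the 7 neighbours in this order differed beyond their spread (exact two-sided permutation tests, p 0.80 to 0.97, 0.97 after Benjamini-Hochberg adjustment over 7). Neighbours in an order made from the same means are the closest groups, so these tests say nothing of groups farther apart.

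Ucp1 was found in few libraries. It held 0 reads in 27 of the 40, 11 female and 16 male, where 3 reads would have been 0.0923 to 0.245 FPKM, a floor for counting error only. Another 6 libraries held 1 to 6 reads, and 7 held 27 to 187 reads. Of these 7, the females were control replicate 4 (6.14 FPKM, 152 reads), 1000x replicate 3 (2.88 FPKM, 65 reads), control replicate 3 (2.09 FPKM, 46 reads) and 1000x replicate 5 (1.18 FPKM, 27 reads). The males were control replicate 2 (7.83 FPKM, 187 reads), 30000x replicate 2 (4.14 FPKM, 80 reads) and 30x replicate 3 (3.69 FPKM, 120 reads). Each male group thus had 1 library with Ucp1 reads, since male 1000x replicate 5 held 6, and the other 4 of each group were at 0. Because Ucp1 reached 1 FPKM in 4 female and 3 male libraries, it passed the filter on low values (1 FPKM in at least 5 libraries) in the fit of all 40 libraries through those 7, and not in the fits of 1 sex. By mean log2(FPKM + 1) the groups ran from female control (0.93) to male 1000x (0.07), and no neighbours differed beyond their spread (exact two-sided permutation tests, p 0.76 to 1, 1 after adjustment). These neighbours were again set by the same means. Where both had 1 library above 0, the test gives its highest p whatever the levels, so it could not find a difference.

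Scd varied most. In female controls the 5 libraries held 26.2, 4.55, 220.0, 347 and 60.9 FPKM. At 30x the values were 3.95, 36.7, 29.2, 395 and 24.2 FPKM, at 1000x 64.2, 6.38, 1865, 19.7 and 62.6 FPKM, and at 30000x 12.1, 10.9, 7.70, 48.2 and 48.1 FPKM. Thus 4 female libraries were above 200 FPKM, in the controls, at 30x and at 1000x, while others of the same groups were under 10 FPKM. In female 1000x replicate 3 its 157319 reads were 0.880% of all reads recovered. In male controls the 5 libraries held 5.56, 31.8, 12.5, 6.19 and 9.44 FPKM. At 30x the values were 9.48, 12.4, 8.42, 6.58 and 9.22 FPKM, at 1000x 2.41, 4.32, 13.1, 10.4 and 26.2 FPKM, and at 30000x 12.8, 7.52, 6.68, 11.8 and 7.82 FPKM. Males stayed within 2.41 to 31.8 FPKM, and 10 of the 20 female libraries lay above the highest male while the other 10 overlapped the males. Over all libraries the highest value was 775-fold the lowest. The RefSeq table lists the desaturase copies Scd2, Scd3, Scd4 and Scd-ps1 near Scd, and how reads shared by such copies were counted is not given, which makes the level of Scd uncertain to that extent.

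Fasn was highest in the same 4 female libraries as Scd, and its lowest values lay above those of Scd. In female controls the 5 libraries held 17.3, 8.97, 52.7, 120.3 and 20.5 FPKM. At 30x the values were 10.96, 27.4, 12.03, 84.5 and 10.6 FPKM, at 1000x 22.2, 11.6, 276, 10.1 and 32.03 FPKM, and at 30000x 8.27, 12.1, 11.9, 17.4 and 12.9 FPKM. In male controls the 5 libraries held 12.7, 27.9, 15.3, 11.6 and 10.3 FPKM. At 30x the values were 10.7, 11.2, 13.3, 9.84 and 9.87 FPKM, at 1000x 8.16, 10.4, 13.6, 12.2 and 13.2 FPKM, and at 30000x 14.6, 12.8, 10.9, 11.3 and 11.2 FPKM. Outside 5 female libraries, every value lay at or below the highest male, 27.9 FPKM in control replicate 2. The lowest library, male 1000x replicate 1, still held 8.16 FPKM, and the highest was 33.8-fold above it. For Scd the order of groups by mean log2(FPKM + 1) ran from female 1000x (6.03), female control (5.88), female 30x (5.15) and female 30000x (4.33) to male control (3.55), male 30x (3.33), male 30000x (3.33) and male 1000x (3.25). For Fasn it ran from female 1000x (4.96), female control (4.92) and female 30x (4.41) over male control (3.96) to female 30000x (3.72), male 30000x (3.71), male 1000x (3.62) and male 30x (3.57). No neighbours in either order differed beyond their spread (exact two-sided permutation tests, p 0.24 to 0.98 for Scd and 0.47 to 0.98 for Fasn, 0.98 after adjustment). Here too neighbours are the closest groups by the same means, and groups farther apart were not compared by these tests.

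**Figure D1:**
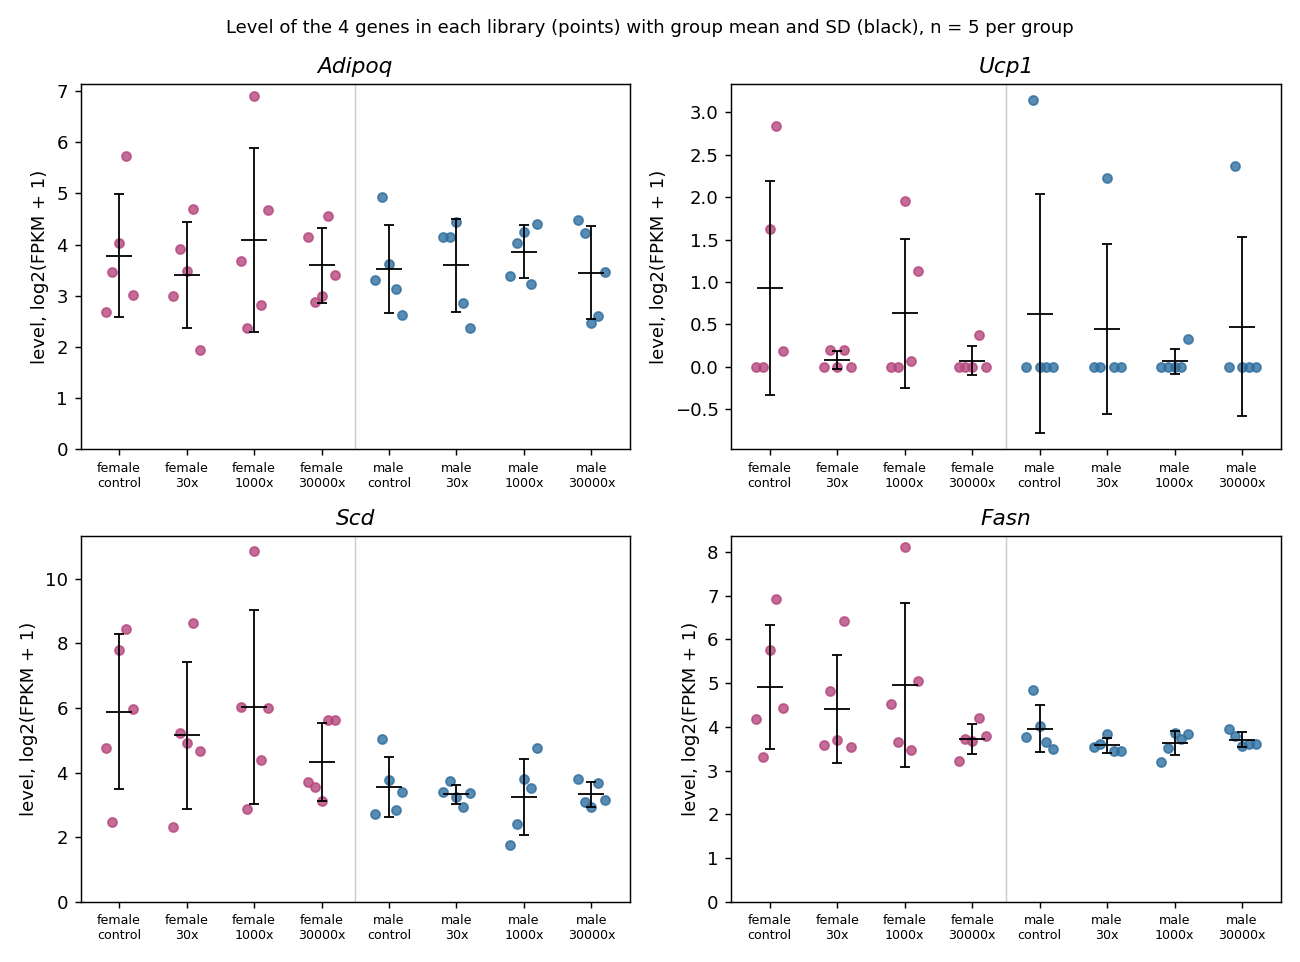
Level of Adipoq, Ucp1, Scd and Fasn as log2(FPKM + 1) in each of 40 libraries (points) by group, with the group mean and SD in black (n = 5 each). Females reach 118 FPKM of Adipoq and 1865 FPKM of Scd, while males end at 29.7 and 31.8 FPKM, and Ucp1 is at 0 in 27 libraries.

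Whether the lipogenic genes followed the fat marker Adipoq was asked between libraries of the same group. Both did over all libraries together. Per unit of log2(FPKM + 1) of Adipoq, Scd was higher by 1.18 (SE 0.19) and Fasn by 0.75 (SE 0.09), with limma adjusted p-values of 0.00017 and 1.1e-06 over 13925 genes tested. Ucp1 was higher by 0.58 (SE 0.11, limma adjusted p = 0.0012). Of the genes tested, 165 rose with Adipoq at an adjusted p under 0.05, 1.18%, and 38 fell, 1.46% in all. The 3 genes were thus all among the 1.18% that rose. Ucp1 had to vary with the 7 libraries that took it past the filter, so its place there describes those libraries. In males alone the slope of Scd on Adipoq, 0.46, did not pass (limma adjusted p = 0.22).

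The library of female 1000x replicate 3, which is highest in Adipoq, Scd and Fasn, was left out to see its part. Without it the slopes on Adipoq were 0.97 for Scd (limma adjusted p = 0.025), 0.60 for Fasn (limma adjusted p = 0.00043) and 0.62 for Ucp1 (limma adjusted p = 0.0084), and the number of genes called over the whole table was 71 in place of 203. Without female 30000x replicate 5 they were 1.19, 0.75 and 0.58. All 3 slopes passed without any 1 of the 40 libraries. For Ucp1 this adds little, since most of the libraries that took it past the filter remained in each of these fits.

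Correlations of group-centred log2(FPKM + 1) over the 40 libraries were tested by permutation of libraries within groups (two-sided, 100000 resamples, adjusted over the 6 pairs of genes). Pearson's r comes from the same values as the slopes, so it is not independent support for them. Adipoq and Scd had a Pearson r of 0.72 (permutation p = 5e-05, adjusted 6e-05) and a Spearman rho of 0.61 (permutation p = 0.00014, adjusted 0.00017). Adipoq and Fasn had an r of 0.81 (permutation p = 1e-05, adjusted 1.5e-05) and a rho of 0.76 (permutation p = 1e-05, adjusted 2e-05), where 1e-05 is the smallest p these resamples can give. Adipoq and Ucp1 had an r of 0.68 (permutation p = 1e-05, adjusted 1.5e-05) and a rho of 0.66 (permutation p = 4e-05, adjusted 6e-05). These are tendencies over libraries with exceptions. Male 30000x replicate 1 had the most Adipoq of its group (21.3 FPKM) and 0 reads of Ucp1, and female 30000x replicate 1, with 16.8 FPKM of Adipoq, had the least Fasn of its group (8.27 FPKM). After leaving out the 2 libraries farthest from the median of Adipoq, female 1000x replicate 3 and female control replicate 4, r was 0.54 for Scd (permutation p = 0.0011), 0.65 for Fasn (permutation p = 1e-05) and 0.57 for Ucp1 (permutation p = 0.00012). Without the 4 female libraries over 200 FPKM of Scd, a choice made after seeing the values, r was 0.43 for Scd (permutation p = 0.012, n = 36) and 0.62 for Fasn (permutation p = 0.00027, n = 36). Scd and Fasn were closest to each other, with an r of 0.91 (permutation p = 1e-05, adjusted 1.5e-05) and a rho of 0.82 (permutation p = 1e-05, adjusted 2e-05), and an r of 0.82 without the 2 libraries farthest in Scd.

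**Figure D2:**
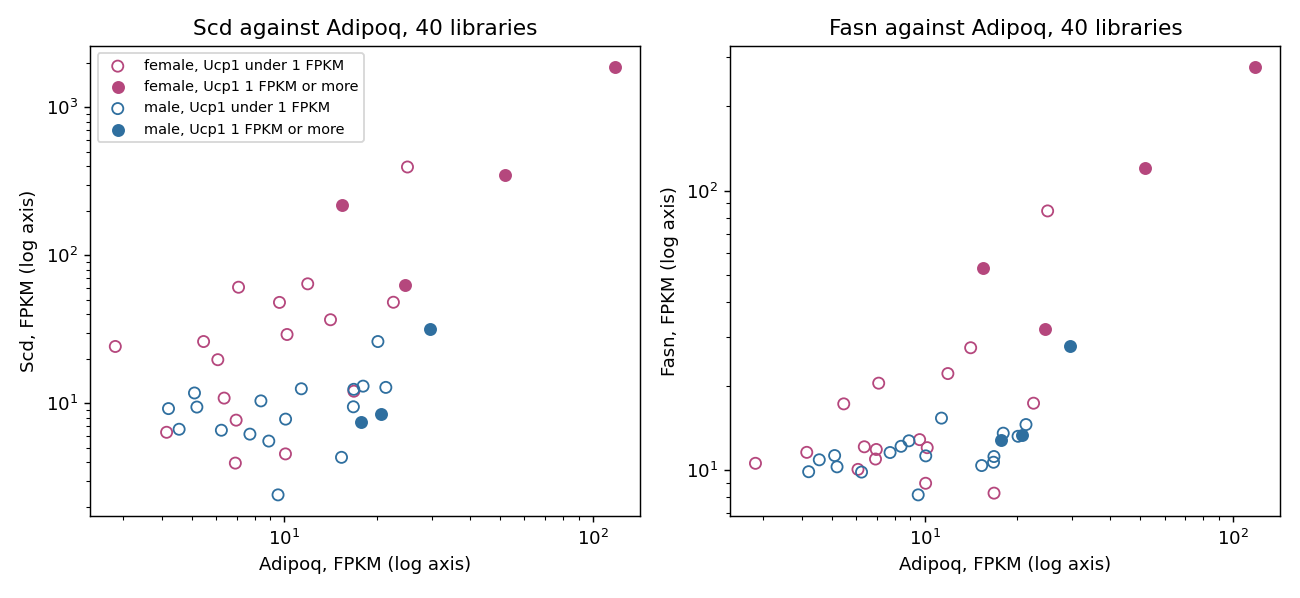
Scd (left) and Fasn (right) against Adipoq in FPKM, both on log axes, 1 point per library, in pink for females and blue for males, filled where Ucp1 was at 1 FPKM or more. The upper right point of both panels is female 1000x replicate 3 (118 FPKM of Adipoq, 1865 of Scd, 276 of Fasn), and male points stay at or under 31.8 FPKM of Scd.

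Against the brown fat marker Ucp1 the result was less uniform. Adipoq was higher by 0.80 per unit of Ucp1 (SE 0.15, limma adjusted p = 0.0039) and Fasn by 0.67 (SE 0.15, limma adjusted p = 0.024), among 38 genes called, all rising, or 0.273% of 13925 tested. The slope of Scd was 0.97 (SE 0.28), which did not pass over all genes (limma adjusted p = 0.18). The call of Fasn was lost without female control replicate 2 (0.62, limma adjusted p = 0.056), female control replicate 4 (0.58, limma adjusted p = 0.18) or female 1000x replicate 3 (0.51, limma adjusted p = 0.10). The count of all genes called was 16 without female control replicate 4, 23 without female 1000x replicate 3 and 63 without male 30000x replicate 2.

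As single correlations over the 40 libraries, Ucp1 and Fasn had an r of 0.62 (permutation p = 1e-05, adjusted 1.5e-05) and a rho of 0.75 (permutation p = 1e-05, adjusted 2e-05), and Ucp1 and Scd an r of 0.51 (permutation p = 0.00033, adjusted 0.00033) and a rho of 0.49 (permutation p = 0.0022, adjusted 0.0022). Without the 2 libraries farthest in Ucp1, male control replicate 2 and female control replicate 4, r was 0.54 for Fasn (permutation p = 9e-05) and 0.43 for Scd (permutation p = 0.0052). Since 27 values of Ucp1 are 0, the relation was also computed over the 13 libraries with at least 1 read. Here sex means were removed and not group means, libraries were permuted within sex, and p-values were adjusted only over the pairs that hold Ucp1. There r was 0.65 for Fasn (permutation p = 0.012, adjusted 0.024) and 0.49 for Scd (permutation p = 0.094, adjusted 0.094). Single libraries departed in both directions. Female 30x replicate 4 held 395 FPKM of Scd and 84.5 FPKM of Fasn with 3 reads of Ucp1. Male 30000x replicate 2 and male 30x replicate 3 held 4.14 and 3.69 FPKM of Ucp1 with 7.52 and 8.42 FPKM of Scd, which is within the range of male libraries at 0 Ucp1 reads.

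Within each sex the relations to Ucp1 rest on fewer libraries, since 9 of 20 female and 4 of 20 male libraries held Ucp1 reads. Each male group had 1 of those 4, and male control replicate 2 was the highest male in both Ucp1 and Fasn. In females Adipoq was higher by 1.29 per unit of Ucp1 (SE 0.22, limma adjusted p = 0.023) and Fasn by 1.42 (SE 0.23, limma adjusted p = 0.021), where 0.279% of 13251 genes were called and 0.249% rose, while the slope of Scd was 2.15 (SE 0.48), which did not pass (limma adjusted p = 0.067). In males the slopes were 0.51 for Adipoq, 0.22 for Fasn and 0.27 for Scd (limma adjusted p = 0.17, 0.15 and 0.48), where 0.0458% of 13110 genes were called. Pearson's r with Ucp1 was 0.82 for Fasn and 0.73 for Scd in 20 females (permutation p = 5e-05 and 0.00011, adjusted over the 6 pairs 0.00010 and 0.00014), and 0.70 and 0.34 in 20 males (permutation p = 0.011 and 0.12, adjusted 0.017 and 0.12). Spearman's rho was 0.86 for Fasn and 0.72 for Scd in females (permutation p = 8e-05 and 0.0026), and 0.59 and 0.26 in males (permutation p = 0.013 and 0.17). Adjusted over the 6 pairs, the p-values of rho were 0.00022 and 0.0026 in females, and 0.026 and 0.17 in males. A difference between the sexes in the slope on Ucp1 was not tested.

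By the likeness of their group-centred log2(FPKM + 1) to Adipoq over the 40 libraries, Fasn stood at rank 27, Scd at rank 52 and Ucp1 at rank 68 of 13925 genes (r of 0.81, 0.72 and 0.68). The genes most like Adipoq were ENSRNOG00000010079 (r 0.96, mean 89.8 FPKM) and ENSRNOG00000010805 (r 0.95, mean 73.2 FPKM), and those least like it were ENSRNOG00000020417 (r -0.70) and ENSRNOG00000003969 (r -0.68). For Ucp1, Adipoq stood at rank 16, Fasn at rank 36 and Scd at rank 129. The genes most like Ucp1 were ENSRNOG00000028616 (r 0.77, mean 6.30 FPKM) and ENSRNOG00000007290 (r 0.76, mean 5.34 FPKM), and those least like it ENSRNOG00000043182 (r -0.58) and ENSRNOG00000050949 (r -0.58). These likenesses share libraries, depth and size factors, and the identifiers were not matched to names. Ucp1 was ranked only because 7 libraries took it past the filter, so its rank describes those libraries.

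Scd and Fasn were higher in females, and no difference in Adipoq or Ucp1 was detectable. Averaged over the 4 dose levels, Scd was higher in females than in males by 1.98 on the log2(FPKM + 1) scale (SE 0.52, limma adjusted p = 0.0038), with a median of 32.96 FPKM in 20 female libraries and 9.33 FPKM in 20 male libraries. Fasn was higher in females by 0.79 (SE 0.29, limma adjusted p = 0.040), with medians of 15.1 FPKM in females and 11.4 FPKM in males. The female minus male difference was 0.11 for Adipoq (95% interval -0.53 to 0.76, limma adjusted p = 0.83) and 0.03 for Ucp1 (95% interval -0.53 to 0.58, limma adjusted p = 0.96), and these intervals leave room for a difference in either direction. Sex was a broad contrast, with 29.5% of 13926 genes called, 1930 higher in females (13.9%) and 2173 higher in males, so that 2 of 4 is read against that share. Rescaled to a common FPKM sum per library, 314 genes were higher in females and 8197 higher in males, with the median of all genes at -0.26, and Scd was higher in females by 1.70 (limma adjusted p = 0.0067) while the difference of Fasn was 0.49 and did not pass (limma adjusted p = 0.17).

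The call of Scd held without any 1 library, with differences of 1.68 to 2.20. That of Fasn was lost in 15 of 40 such fits, without female control replicates 3 and 4, female 30x replicates 2 and 4, female 1000x replicates 3 and 5, female 30000x replicate 4, male control replicates 1, 4 and 5, male 30x replicates 4 and 5, male 1000x replicate 1, or male 30000x replicates 3 and 4, at 0.59 to 0.78 (limma adjusted p 0.050 to 0.070). In controls alone neither passed: the female minus male difference was 2.34 for Scd (SE 1.04, limma adjusted p = 0.19) and 0.96 for Fasn (SE 0.59, limma adjusted p = 0.38), where 5.23% of genes were called (728, against 336 to 1074 with 1 library left out). At equal Adipoq, a comparison added after seeing the values in which Adipoq is a term of the fit, Scd was higher in females by 1.85 (SE 0.36, limma adjusted p = 0.00025) and Fasn by 0.70 (SE 0.18, limma adjusted p = 0.0026), where 29.9% of genes were called and 14% were higher in females. Neither of these 2 calls was lost without any 1 library. That fit gives both sexes a common slope on Adipoq. Fitted within each sex, the slope of Scd was 1.48 in females and 0.46 in males, and that of Fasn 0.94 and 0.30. With unequal slopes the difference between the sexes would depend on the level of Adipoq at which it is read.

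The slope on Adipoq was also fitted within each sex. In females Scd was higher by 1.48 per unit of Adipoq (SE 0.26, limma adjusted p = 0.0045) and Fasn by 0.94 (SE 0.12, limma adjusted p = 0.00020), where 1.18% of 13250 genes were called and 0.853% rose. In males Fasn was higher by 0.30 (SE 0.07, limma adjusted p = 0.040), where 0.610% of 13109 genes rose, and the slope of Scd was 0.46 (SE 0.20), which did not pass (limma adjusted p = 0.22). Pearson's r with Adipoq was 0.80 for Scd and 0.88 for Fasn in 20 females (permutation p = 0.00047 and 0.00012, adjusted over the 6 pairs 0.00047 and 0.00014), and 0.48 and 0.75 in 20 males (permutation p = 0.019 and 2e-05, adjusted 0.023 and 0.00012). Spearman's rho was 0.74 for Scd and 0.79 for Fasn in females (permutation p = 0.0016 and 0.00046), and 0.42 and 0.75 in males (permutation p = 0.050 and 7e-05). Adjusted over the 6 pairs, the p-values of rho were 0.0019 and 0.00069 in females, and 0.06 and 0.00042 in males, so that the rho of Adipoq and Scd in males did not pass. Tested directly, an addition made after seeing the values, the slope of Fasn was steeper in females than in males by 0.64 (SE 0.17, limma adjusted p = 0.047), and for Scd the difference in slope was 1.02 (SE 0.39), which did not pass (limma adjusted p = 0.13). In that test 1.75% of genes were called, 0.883% with the steeper slope in females. The difference for Fasn is narrow: it was lost in 24 of 40 fits that left out 1 library, without female control replicates 1, 4 and 5, female 30x replicates 1, 2, 4 and 5, female 1000x replicates 1, 2 and 3, male control replicates 1, 2, 4 and 5, male 30x replicates 1 and 4, male 1000x replicates 2, 4 and 5, or male 30000x replicates 1, 2, 3, 4 and 5, at 0.53 to 0.74 (limma adjusted p 0.050 to 0.22). The count of genes called in that test ran from 0 without male control replicate 2 to 778 without male 30x replicate 5.

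**Figure D3:**
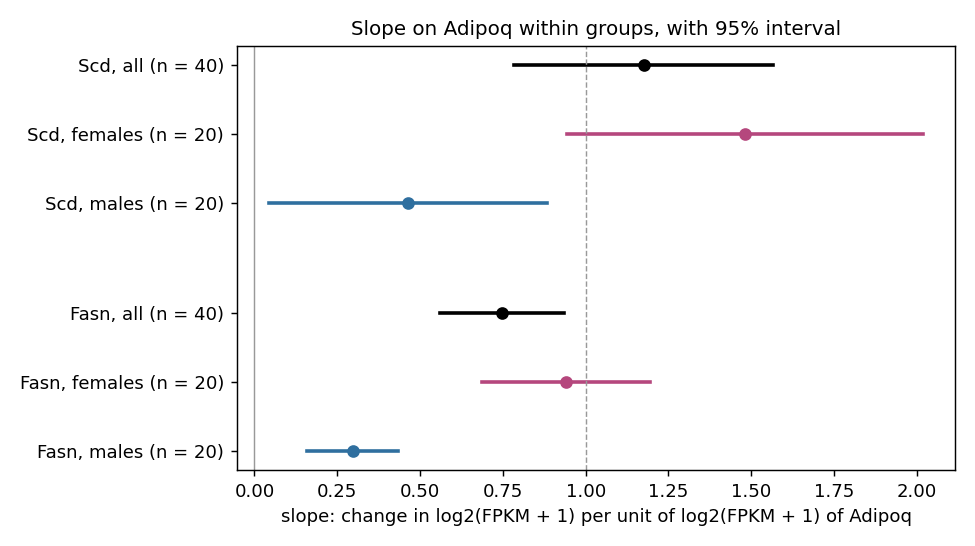
Slope of Scd and Fasn on Adipoq between libraries of the same group, as change in log2(FPKM + 1) per unit of log2(FPKM + 1) of Adipoq, with 95% intervals from limma, for all 40 libraries (black), females (pink) and males (blue). The dashed line marks a slope of 1, and the male slopes (0.46 for Scd, 0.30 for Fasn) lie left of the female ones (1.48 and 0.94).

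The ratio of the genes differed between libraries as well. The FPKM of Scd per FPKM of Adipoq ran from 0.452 to 15.8 in females with a median of 3.05, and from 0.253 to 2.30 in males with a median of 0.789. For Fasn per Adipoq the ranges were 0.493 to 3.74 in females and 0.638 to 2.39 in males. The 4 female libraries highest in Scd had 15.8 (1000x replicate 3), 15.8 (30x replicate 4), 6.69 (control replicate 4) and 14.3 (control replicate 3) FPKM of Scd per FPKM of Adipoq. The male library highest in all 4 genes, control replicate 2, had 1.07. Scd and Adipoq thus did not keep 1 ratio across libraries. Ratios were described and not tested.

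At none of the 3 doses was a difference from controls detectable in these genes beyond the spread between libraries. In 18 tests of Adipoq, Scd and Fasn (3 doses in 2 sexes, limma against the controls of the sex), 0 passed, 0 were at an unadjusted p under 0.05, and voom on the recovered reads called 0 as well. Over all genes, 0.00763% were called at each dose in males, and 0% at each dose in females. In females 1053, 221 and 1309 of 13251 genes were at an unadjusted p under 0.05 at 30x, 1000x and 30000x. In males 1248, 946 and 771 of 13110 genes were. The differences of largest size were in females at 30000x, where Scd had a difference of -1.56 from controls on the log2(FPKM + 1) scale (95% interval -4.33 to 1.22, limma adjusted p = 0.65) and Fasn one of -1.20 (95% interval -2.81 to 0.41, limma adjusted p = 0.57). With 1 library left out these ran from -2.41 (without female control replicate 2) to -0.92 (without female control replicate 4) for Scd, and from -1.60 to -0.70 without the same libraries for Fasn, and none passed.

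In FPKM, Scd averaged 132 ± 147 in female controls, 97.9 ± 167 at 30x, 404 ± 817 at 1000x and 25.4 ± 20.8 at 30000x (SD, n = 5 each). In males it averaged 13.1 ± 10.8 in controls, 9.23 ± 2.12 at 30x, 11.3 ± 9.39 at 1000x and 9.32 ± 2.77 at 30000x (SD, n = 5 each). Fasn averaged 43.9 ± 45.8 FPKM in female controls, 29.1 ± 31.8 at 30x, 70.3 ± 115 at 1000x and 12.5 ± 3.24 at 30000x (SD, n = 5 each). Dosed and control libraries overlapped in each of these comparisons. In males the difference of Fasn was -0.39 at 30x (95% interval -0.79 to 0.01, limma adjusted p = 0.53), -0.34 at 1000x and -0.25 at 30000x, comparisons that share the 5 control libraries, of which replicate 2 is far above the rest. Without male control replicate 2 the difference was -0.16 at 30x, -0.12 at 1000x and -0.03 at 30000x; none passed. Adipoq differed by -0.38 to 0.33 over the 6 comparisons (limma adjusted p 0.89 to 1). For Ucp1, tested without the filter, the differences were -0.86 to -0.16 (limma adjusted p 0.66 to 1). The change at each dose was also compared between females and males for the 4 genes, and 0 of these 12 tests passed, 0 were at an unadjusted p under 0.05 and voom called 0, where 0% of 13926 genes were called.

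**Figure D4:**
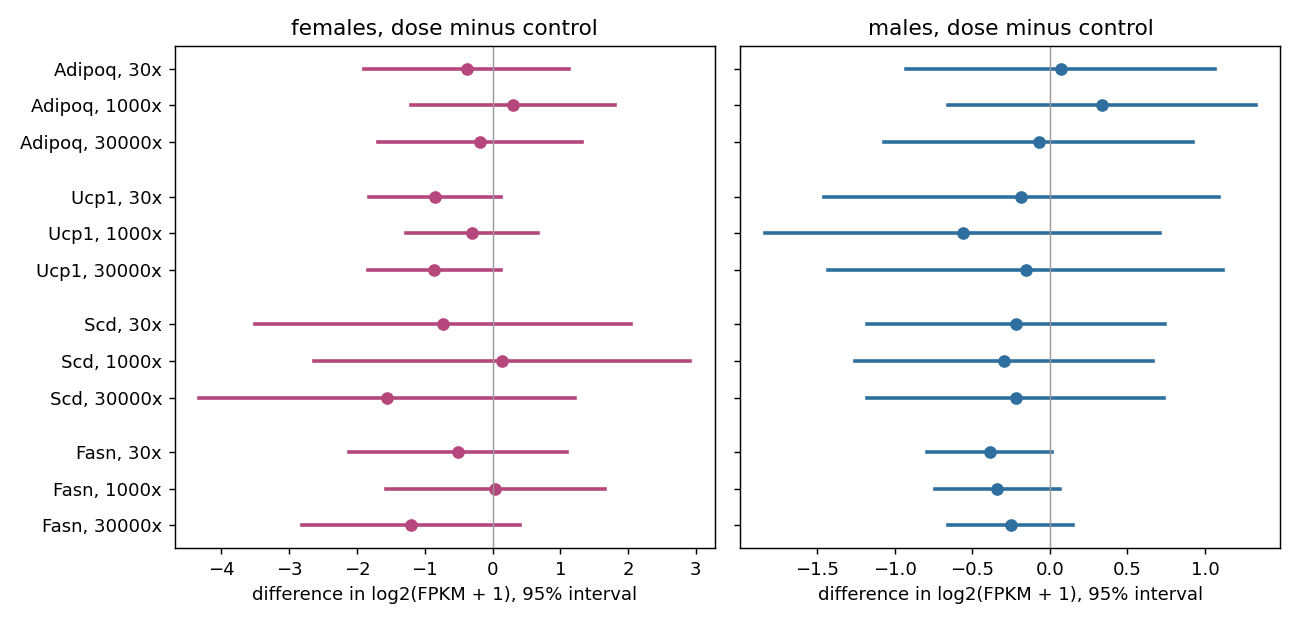
Difference of each dose from the controls of the same sex in log2(FPKM + 1), with 95% intervals from limma, for the 4 genes in females (left) and males (right); Ucp1 is from the fit without a filter on low values. All 24 intervals include 0, and that for Scd in females at 30000x runs from -4.33 to 1.22.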

How the data were processed

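Total RNA from adrenal glands was sequenced on an Illumina platform, per the labels' protocols. The submitters' processing notes name HISAT2 2.0.5 and featureCounts 1.5.0-p3; build, annotation and strand setting are not stated in any source used here. The authors deposited FPKM for 32545 genes in each of 40 libraries. Whole reads were recovered from these values (100.0% of 680244 values above 0 within 0.05 of a whole read, for 20717 genes), which shows the FPKM to be scaled by size factors. Gene lengths solved with them were 2039 bases for Adipoq, 1198 for Ucp1, 4475 for Scd and 9139 for Fasn.

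The tests used limma 3.58.1 (R 4.3.3, trended prior, two-sided) on log2(FPKM + 1), keeping genes at 1 FPKM or more in at least 5 libraries of the fit: 13110 in males, 13251 in females and 13926 in both. P-values were adjusted over all genes kept (Benjamini-Hochberg, threshold 0.05). Fold changes on this scale understate changes of low genes such as Ucp1. Slopes used the group-centred log2(FPKM + 1) of Adipoq or Ucp1 as a numeric term beside the groups. Correlations were permuted within groups 100000 times in Python 3.11.15, or within sex for those over libraries with Ucp1 reads. Both kinds of script were checked on simulated data. The count test (voom, limma) on recovered reads called 0 of the 18 dose tests of the members. Intervals and floors cover counting error or the spread between libraries as stated.

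The 4 genes, the lists and the tests were chosen with earlier results of these data known. The difference in slope between the sexes, the fit at equal Adipoq, the correlations over libraries with Ucp1 reads and those without 4 female libraries were added after seeing the data. Besides the members, the 2 genes most and the 2 least like Adipoq and Ucp1 are named; the marker lists set out for fat, lipogenesis, cortex, medulla, endothelium, macrophages and muscle are not analysed here, because their identifiers were not matched. Alternatives were another pseudocount (0.1), no filter, quantile and common-sum scaling, library weights, voom, a replicate block, fits of the compared groups or of 1 sex, and leaving out each library.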

Additional observations from a re-analysis of the deposited data

Results flagged for a closer look

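In 14 of the 32 sets of 5 libraries examined (4 genes in 8 groups), 1 library lay far from the other 4 by the gap to its nearest neighbour; chance flags about 1 in 20 sets of normally distributed values, the rate for skewed values such as these FPKM was not computed, and Ucp1 sets with 1 value above 0 are flagged whatever that value is. Male control replicate 2 was far above its group in all 4 genes, with 29.7 FPKM of Adipoq, 7.83 FPKM of Ucp1, 31.8 FPKM of Scd and 27.9 FPKM of Fasn. Female 1000x replicate 3 was far above its group in 3 genes, with 118 FPKM of Adipoq, 1865 FPKM of Scd and 276 FPKM of Fasn. Female 30x replicate 4 was far above its group in Scd (395 FPKM) and Fasn (84.5 FPKM), and female control replicate 4 in Adipoq (51.8 FPKM). Ucp1 was above 0 in 1 library alone of male 30x (replicate 3, 3.69 FPKM), male 1000x (replicate 5, 0.261 FPKM), male 30000x (replicate 2, 4.14 FPKM) and female 30000x (replicate 4, 0.296 FPKM). The slope of Fasn on Adipoq differed between the sexes by a direct test, steeper in females by 0.64 (limma adjusted p = 0.047). That test was added after seeing the data, and its call was lost in 24 of 40 fits that left out 1 library and under 4 other settings. The part of dissection, of other cells or of the library in these values was not tested.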

How the results depend on the processing

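None of the directions of the called results reversed under the alternatives run. The difference of Fasn between females and males, 0.79, was no longer called without a filter on low values (0.79, limma adjusted p = 0.068) or with a common FPKM sum (0.49, limma adjusted p = 0.17), and ranged from 0.59 to 0.89 with 1 library left out. The slope of Fasn on Ucp1, 0.67, ranged from 0.51 to 0.80 with 1 library left out. In males alone the slopes of Scd on Adipoq (0.46), of Adipoq on Ucp1 (0.51) and of Fasn on Ucp1 (0.22) were not called. The steeper slope of Fasn on Adipoq in females, 0.64, was not called with a pseudocount of 0.1 (0.61, limma adjusted p = 0.053), without a filter (0.64, limma adjusted p = 0.077) or after quantile normalization (0.68, limma adjusted p = 0.082), and ranged from 0.53 to 0.74 with 1 library left out. The correlation of Ucp1 and Scd did not pass in males (r 0.34, permutation p = 0.12) or over libraries with Ucp1 reads (r 0.49, permutation p = 0.094). Genes called for the slope on Adipoq (203) numbered 531 with a common sum, 589 with library weights, and 71 to 261 with 1 library left out. For the slope on Ucp1 (38) they numbered 70 without a filter, 64 with library weights, 67 by voom, 6 in males, and 16 to 63 with 1 library left out. For the difference in slope (243) they numbered 126 without a filter, 16 after quantile normalization, 611 with a common sum, 683 with library weights, 445 by voom, and 0 to 778 with 1 library left out; without female 30000x replicate 5 it was 742. Genes called between the sexes (4103) numbered 8511 with a common sum, and in controls alone (728) 1508 with library weights, 435 with those groups alone, and 336 (without female control replicate 3) to 1074 with 1 library left out. The causes were not tested.

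Replicate numbers were not taken to pair the libraries, since not every pair passed 0.1: of 50 same-numbered pairs of a library of one group with a library of the other, 7 had a correlation of deviations from the group means over 0.1 (range -0.171 to 0.242), 3 of the 5 pairs of female 30x with female controls among them (0.221, 0.131 and 0.211). With the replicate block the slope of Fasn on Ucp1 was 0.66 (limma adjusted p = 0.065) and its difference in slope between females and males was 0.52 (limma adjusted p = 0.25), both not called. The block left 128 genes called for the slope on Adipoq and 0 for the difference in slope.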
